A study of Lytechinus variegatus with 18 samples.

Results

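Embryos of the sea urchin Lytechinus variegatus that had received ethanol at fertilization were compared with control embryos at 18 hours post fertilization (hpf). The 3 ethanol and 3 control libraries of that age were taken by the deposited sample sheet and paired by their replicate letter, which makes 6 of the 18 libraries of the series. All embryos were wild type, each library held total RNA of about 150 pooled whole embryos, and the other 12 libraries came from the same treatments at 15 and 21 hpf. The ethanol concentration, the handling of the control embryos and the parents of each replicate are not given in the sources used here. The comparison asks which transcripts stood at another level in ethanol embryos than in controls of the same age.

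Sea urchin gastrulae form a regionalized gut, mesenchyme cells build the larval skeleton under Vegf signals from the ectoderm, and other mesoderm gives pigment cells, blastocoelar cells, coelomic pouches and muscle. Homeobox and forkhead transcription factors mark these territories and are used to follow how far each has been specified. Ethanol is oxidised by alcohol and aldehyde dehydrogenases and is a known teratogen in vertebrates.

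The 6 libraries had total counts of 7434025 to 8000894, and between 21472 and 23535 of 27230 gene models had a count in a library. Control replicates 1, 2 and 3 had 22573, 21472 and 21897 such models, and the ethanol replicates 23535, 22962 and 23381. Trimmed-mean scaling factors were 0.809 to 0.989 in controls and 1.002 to 1.188 with ethanol, so the groups overlapped in neither measure. List medians below are to be read beside this difference, whose cause was not tested. Levels are in CPM, which relates counts to library size after scaling, and a gene is called where the adjusted p of edgeR's quasi-likelihood test, Benjamini-Hochberg adjusted over 18674 gene models, was under 0.05. Replicate number entered the fit as a block, because deviations from the group means correlated at 0.630 to 0.680 between same-numbered 18 hpf libraries and at -0.41 to -0.22 between the others. This check compares libraries of 1 age, while the block is 1 effect shared by the 3 ages. Correlations between ages were not computed. At 21 hpf the same check was less clear, with 0.156 and 0.402 for replicates 1 and 2 and -0.50 to 0.28 between differently numbered libraries. It gave -0.22 for the 21 hpf pair of replicate 3, in which the libraries labelled ethanol and control differed in the opposite direction to the other pairs. Calls in the gene lists are therefore also given from a fit without that 21 hpf pair, which holds no 18 hpf library, called the reduced fit below. The labels call the samples biological replicates. The p-values measure the spread left between these pools after the block, estimated over all 18 libraries of the 3 ages. Summed markers of skeletogenic, pigment, blastocoelar, gut, apical, aboral, small micromere and ciliated cells and of neurons were above 0 in every 18 hpf library.

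Ethanol embryos at 18 hpf had less RNA of several gut, muscle and neural regulators, digestive enzymes, tubulins and ribosomal proteins, and more RNA of some receptors, an asparagine synthetase and 2 secreted signals. In all, 760 of 18674 gene models were called (4.07%), 488 lower in ethanol (2.61%) and 272 higher (1.46%). All 488 lower genes and 270 of the 272 higher genes moved the same way in the 3 pairs, against 11907 of the 18674 tested. Ethanol and control libraries did not overlap for 391 of the lower and 235 of the higher genes, against 27.3% of all genes tested. The same libraries chose the called genes, so these counts describe the calls and are no separate support for them. In whole embryos, fewer cells of a type and less RNA per cell cannot be told apart.

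These calls lie close to the threshold, with adjusted p between 0.0381 and 0.0494 for the 30 genes named for the size of their change or their p. With no block, no gene passed, although 3070 had an unadjusted p under 0.05, and none passed when the 18 hpf pair of replicate 1, 2 or 3 was left out. A separate replicate block for each time (9 pairs) left 1 call, with 5484 genes at an unadjusted p under 0.05. Without the 21 hpf pair of replicate 3, 5134 of 19101 genes passed (26.9%), 2335 higher (12.2%) and 2799 lower (14.7%), and these held all 760. List counts from this reduced fit are to be read beside these shares of all genes. The 6 libraries of 18 hpf fitted alone gave 7166 of 16541. Scaling by total counts alone raised the median of all genes by 0.30 on the log2 scale and gave 1203 higher and 368 lower calls, so directions below are relative to the trimmed-mean scaling unless stated.

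Gut regulators were among the genes with the largest differences. Of 26 endoderm regulators and gut genes tested, 7 fell and 1 rose (30.8% called), with a median log2 difference of -0.37 against 0.05 over all genes tested. Sp-Lox, the Pdx1-type homeobox gene of the gut, is carried by a pair of gene models, between which reads may be divided. The first (L_var_00399, chromosome 1, 15507568 to 15529787, plus strand) stood at 5.73, 13.8 and 14.6 CPM in control replicates 1, 2 and 3 and at 0.114, 1.21 and 0.529 CPM in the ethanol libraries. It fell by 4.21 ± 0.79 (SE) on the log2 scale, with adjusted p = 0.0426, and every ethanol library was under every control. The second Sp-Lox model fell by 3.15 ± 0.72 (SE).

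Sp-FoxD_1, a forkhead factor (L_var_19291, chromosome 11, 34984068 to 34985249, plus strand), measured 27.1, 40.8 and 20.1 CPM in controls and 0.914, 4.43 and 2.64 CPM in ethanol embryos. It fell by 3.47 ± 0.73 (SE) (adjusted p = 0.0430), with replicate 2 the highest in both groups. Both models of Sp-Hnf4, a nuclear receptor of gut tissue, fell: 1 fell by 1.40 and the other fell by 1.49 on the log2 scale. Sp-Z166, described as growth factor independent 1, fell by 1.06 ± 0.28 (SE). Sp-Wnt16, a Wnt ligand, went the other way, from 23.996, 13.5 and 10.9 CPM in controls to 53.8, 34.8 and 41.0 CPM with ethanol, and rose by 1.45 ± 0.35 (SE) without overlap. Sp-Endo16, a secreted protein of the midgut, stood at 819.6, 853 and 981 CPM in controls and 1323, 1623 and 2024 CPM in ethanol embryos and was called only without the 21 hpf pair of replicate 3 (adjusted p = 0.173 with it and 0.0283 without). Without that pair, 4 list members rose and 9 fell.

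Some enzymes of the differentiating gut also fell, although most of their list did not pass. Of 54 tested digestive enzymes and lipid-binding proteins, 6 fell (11.1%, with 4.07% over all genes) and none rose. The median was 0.14, and it became -0.03 with a minimum count of 30. The reduced fit gave 5 higher and 10 lower of 59 tested, where 26.9% of all genes were called. Sp-Fabp2L2, an intestinal-type fatty acid binding protein (L_var_13541, chromosome 7, 19084848 to 19087541, minus strand), stood at 213, 497 and 111 CPM in controls against 4.23, 50.2 and 3.17 CPM with ethanol. It fell by 4.40 ± 0.95 (SE). Ethanol replicate 2 was the highest of its group and still under the lowest control. Neighbouring lactase-phlorizin hydrolase genes on chromosome 7 fell together. Sp-Lct_3 (L_var_13878, chromosome 7, 30214585 to 30230043, plus strand) measured 84.0, 113 and 78.1 CPM in controls and 3.54, 14.5 and 7.30 CPM with ethanol and fell by 3.56 ± 0.69 (SE). Sp-Lct_11 (L_var_13879, chromosome 7, 30235030 to 30239431, plus strand) measured 12.4, 26.03 and 14.1 CPM in controls and 0.686, 3.36 and 0.952 CPM with ethanol and fell by 3.47 ± 0.62 (SE). Another of them, Sp-Lct_2, fell by 2.65 ± 0.72 (SE) but shares its name with another model. Both models of Sp-Mgam_3, a maltase-glucoamylase, fell as well.

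A muscle factor and 2 forkhead factors also fell. Of 23 genes of mesoderm, coelomic pouch and small micromere descendants, 3 fell (13%) and none rose, but the reduced fit called 6 higher and 7 lower. The median of -0.23 became 0.07 when scaled by total counts. Sp-MyoD, the myogenic factor (L_var_26700, chromosome 19, 6437436 to 6444509, plus strand), was at 5.73, 9.93 and 5.23 CPM in controls and at 0.457, 0.671 and 0.634 CPM with ethanol. It fell by 3.57 ± 0.71 (SE) (adjusted p = 0.0426), and all 3 ethanol libraries were under 1 CPM. Sp-FoxL1, described as forkhead box L2 (L_var_03436, chromosome 2, 19752352 to 19753926, minus strand), measured 14.7, 17.7 and 15.9 CPM in controls and 0.457, 3.62 and 0.106 CPM in ethanol embryos and fell by 3.84 ± 0.94 (SE). The 3 controls lay close together, and ethanol replicate 2 was well above the other ethanol libraries.

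Sp-FoxY, a forkhead gene of small micromere descendants (L_var_09987, chromosome 5, 2266773 to 2274184, minus strand), was the most abundant of the 3, with 184, 219 and 214 CPM in controls and 46.6, 121 and 52.8 CPM in ethanol embryos, and fell by 1.59 ± 0.28 (SE). A model of Sp-Nanos2, another gene of that lineage, had 60.1, 55.3 and 15.9 CPM in controls and 93.1, 72.1 and 29.0 CPM with ethanol. It was higher in each pair but called only in the reduced fit (adjusted p = 0.00783, and 0.178 with all libraries). Both tested models of Sp-Nanos3, low in level, were also higher in each pair. The reduced fit alone called them (adjusted p = 0.0139 and 0.0078, and 0.0942 and 0.121 with all libraries). Of 7 tested marker models of small micromere descendants, the reduced fit called 3 higher and 1, Sp-FoxY, lower. Sp-Dach, a coelomic pouch factor, had a log2 difference of 1.55 with adjusted p = 0.0512, and 1.99e-05 without the 21 hpf pair of replicate 3.

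Genes of the anterior neuroectoderm and of neurons were mostly lower where they were called. Of 35 tested, 6 fell and 1 rose (20% called), and the median of -0.18 became 0.13 when scaled by total counts. Sp-Sfrp1/5, a secreted Wnt inhibitor of the anterior pole (L_var_12005, chromosome 6, 18188455 to 18194100, minus strand), measured 305, 265 and 298 CPM in controls and 131, 80.9 and 82.1 CPM with ethanol, and fell by 1.58 ± 0.29 (SE) (adjusted p = 0.0426). The 3 controls agreed closely, and all ethanol libraries were at less than their lowest level. Sp-Brn1/2/4, a POU factor gene (L_var_09396, chromosome 4, 49294075 to 49295469, plus strand), went from 37.6, 68.0 and 46.2 CPM in controls to 8.34, 33.4 and 17.2 CPM with ethanol. It fell by 1.47 ± 0.34 (SE).

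Sp-Tph, tryptophan 5-hydroxylase, the serotonin-making enzyme, stood at 4.27, 7.65 and 2.41 CPM in controls and 1.5999, 0.940 and 1.16 CPM with ethanol and fell by 1.89 ± 0.51 (SE). The homeobox genes Sp-Lhx2 and Sp-Nkx3-2 and the Fez-type zinc finger gene Sp-Z133 fell by 1.39, 1.32 and 0.99. One of the models of Sp-Prox1, a prospero-type homeobox gene, rose by 1.71 ± 0.42 (SE). The pan-neuronal RNA-binding gene Sp-ElavL did not share the direction, with 348, 263 and 272 CPM in controls and 451, 416 and 494 CPM with ethanol (adjusted p = 0.108, and 0.0263 without the 21 hpf pair of replicate 3). Without that pair, 5 members of the list rose and 12 fell.

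**Figure D1:**
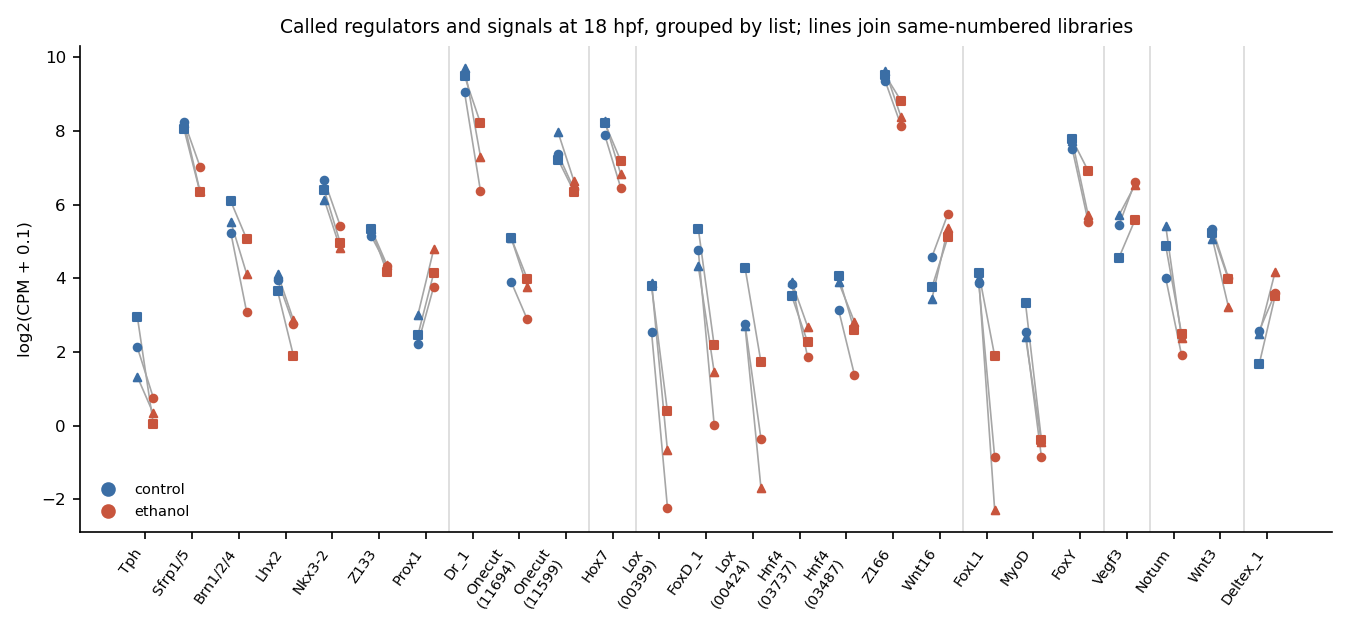
Levels of the called regulators and signals at 18 hpf on a log2(CPM + 0.1) axis, 1 column per gene model, with control and ethanol libraries side by side, circles, squares and triangles for replicates 1, 2 and 3 and lines that join same-numbered libraries. In most columns the lines run down to ethanol, as in Sp-Lox and Sp-MyoD, and they run up in Sp-Wnt16 and Sp-Vegf3.

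In the ectoderm lists, all genes called in the fit with all libraries were lower with ethanol. Of 19 oral ectoderm and ciliary band genes tested 3 fell (15.8%) and none rose, and of 16 aboral ectoderm genes 1 fell (6.25%) and none rose. Over all genes 4.07% were called. The reduced fit called 3 higher and 3 lower in the first list and 2 higher and 2 lower in the second, with 12.2% and 14.7% over all genes. Sp-Dr_1 was the largest of these, at 529.8, 723 and 846 CPM in controls and 83.0, 297 and 159 CPM with ethanol, and fell by 2.11 ± 0.38 (SE). Ethanol replicate 2 was again the highest of its group and under every control. Both models of Sp-Onecut, a ciliary band homeobox gene, fell: 1 fell by 1.06 and the other fell by 1.16, the latter with overlapping groups. Sp-Hox7, an aboral ectoderm homeobox gene (L_var_06457, chromosome 3, 28369313 to 28382822, minus strand), stood at 238, 298 and 308 CPM in controls and 88.2, 147 and 114 CPM with ethanol and fell by 1.31 ± 0.32 (SE). Sp-Nodal, the ligand that sets the oral side, had 69.1, 66.1 and 41.7 CPM in controls and 97.3, 67.1 and 57.5 CPM with ethanol, with a log2 difference of 0.33 and adjusted p = 0.479.

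Among signalling genes, Wnt members moved in both directions. Of 36 Wnt ligands, receptors and modulators tested, 3 fell and 1 rose (11.1% called), with a median of 0.41. Sp-Wnt3 (L_var_02525, chromosome 1, 86061370 to 86063335, minus strand), a ligand, stood at 40.7, 37.6 and 33.5 CPM in controls and 16.1, 15.7 and 9.30 CPM with ethanol and fell by 1.48 ± 0.32 (SE). Sp-Notum, a secreted Wnt-inactivating enzyme (L_var_09389, chromosome 4, 48943255 to 48969093, plus strand), measured 15.997, 29.5 and 42.9 CPM in controls and 3.66, 5.50 and 5.07 CPM with ethanol and fell by 2.59 ± 0.53 (SE). The controls of Sp-Notum differed more among themselves than the ethanol libraries did, and no libraries overlapped. Sp-Sfrp1/5 and Sp-Wnt16, given above, were the other members called. Leaving out the 21 hpf pair of replicate 3 gave 11 higher and 5 lower.

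Sp-Vegf3, the ectodermal ligand that guides skeletogenic cells (L_var_00379, chromosome 1, 14839488 to 14851956, minus strand), was the only called gene among 19 skeletal patterning signals. That is 5.26%, near the 4.07% of all genes. The reduced fit called 7 higher and 3 lower in this list, with 12.2% and 14.7% over all genes. Sp-Vegf3 stood at 43.6, 23.6 and 52.5 CPM in controls and 97.4, 47.8 and 92.3 CPM with ethanol. It rose by 0.99 ± 0.24 (SE) (adjusted p = 0.0462) and was higher with ethanol in 3 of 3 pairs, but ethanol replicate 2 lay within the controls. Its receptor gene Sp-Vegfr10 had a log2 difference of 1.25, with adjusted p = 0.0589, and 0.00251 without the 21 hpf pair of replicate 3. Sp-Otp, an ectodermal homeobox gene near the skeletal rods, was low in both of its models with log2 differences of -2.84 and -2.17, neither of them called (adjusted p = 0.0590 and 0.0956).

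None of 29 Nodal, BMP and Tgf-beta genes was called, while 11 rose and none fell without the 21 hpf pair of replicate 3, and 23 of 29 had a log2 difference above 0 with it. None of 8 Hedgehog pathway genes was called in either fit. Of 20 Delta-Notch genes 1 rose, a model of Sp-Deltex_1, a ubiquitin ligase gene that acts on Notch (L_var_04529, chromosome 2, 55209443 to 55232710, plus strand). It measured 5.87, 3.09 and 5.49 CPM in controls and 11.999, 11.4 and 18.0 CPM in ethanol embryos and rose by 1.52 ± 0.31 (SE). The share called in the Delta-Notch list, 5%, was near the 4.07% of all genes. The reduced fit called 2 higher and 1 lower in that list, with 12.2% and 14.7% over all genes. The receptor Sp-Notch missed the threshold, with a log2 difference of 1.19 and adjusted p = 0.0503.

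Skeletogenic genes did not pass in the fit with all libraries. None of 19 skeletogenic transcription factors was called, with a median of 0.55, while 9 rose and none fell without the 21 hpf pair of replicate 3. Sp-Alx1, the factor that sets skeletogenic identity (L_var_16422, chromosome 9, 20842851 to 20851004, minus strand), stood at 58.5, 30.3 and 22.4 CPM in controls and 98.5, 60.8 and 103 CPM with ethanol. Ethanol libraries were all above the controls, and its adjusted p was 0.0841 with the 21 hpf pair of replicate 3 and 0.00245 without it. The genes that build the mineral itself showed no common direction. None of 39 biomineralization effectors was called, their median of -0.04 became 0.26 when scaled by total counts, and 6 rose and 7 fell without the 21 hpf pair of replicate 3. The spicule matrix gene Sp-Sm50 stood at 174, 179 and 189.9 CPM in controls and at 165, 228 and 131 CPM with ethanol.

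Of 36 pigment and blastocoelar cell genes 2 fell, both flavin monooxygenases, and none rose (5.56% called, against 4.07% of all genes). The reduced fit gave 5 higher and 3 lower of 37 tested, where 26.9% of all genes were called. Sp-Gcm, the factor of pigment cell fate, stood at 464, 330.5 and 476 CPM in controls and 720.3, 762 and 775 CPM with ethanol, without overlap. Its adjusted p was 0.177 with the 21 hpf pair of replicate 3 and 0.0160 without. The pigment cell marker Sp-Pks1 stood at 4905, 3148 and 6207 CPM in controls and 6495, 6566 and 6211 CPM with ethanol. Sp-Pks1 was called in neither fit (adjusted p = 0.414 with that pair and 0.361 without). The summed level of 3 blastocoelar markers, both models of Sp-GataC and Sp-Scl, ran from 34.3 to 78.9 CPM in controls and from 79.7 to 240.1 CPM with ethanol, with none called and all 3 higher without that pair.

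**Figure D2:**
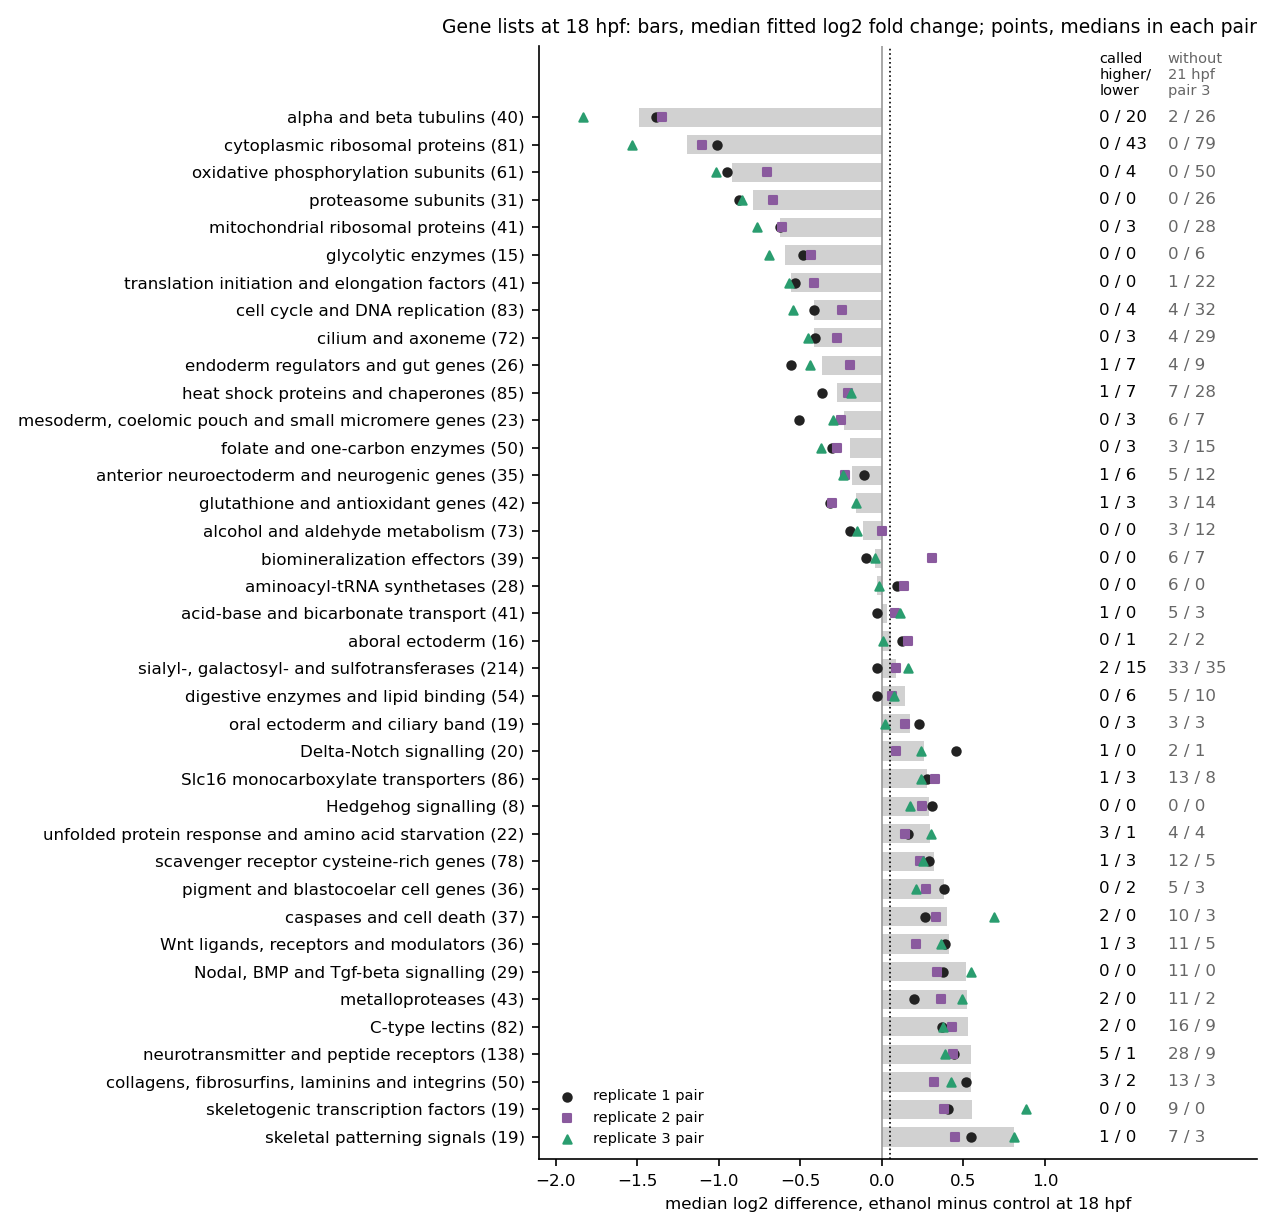
Median log2 difference, ethanol minus control at 18 hpf, of each of 38 gene lists, with the number of genes tested in brackets. Bars are medians of fitted changes and points are medians within each replicate pair. Tubulins and cytoplasmic ribosomal proteins lie lowest, at medians of -1.49 and -1.19. Scaling by total counts would shift the bars up by about 0.30 and turn the medians of the biomineralization, anterior neuroectoderm, mesoderm, alcohol and aldehyde, chaperone, glutathione, folate and aminoacyl-tRNA synthetase lists above 0.

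Tubulins had the largest median difference of the 38 lists. Of 40 alpha and beta tubulin models tested, 20 fell and none rose, with a median log2 difference of -1.49 (-1.19 when scaled by total counts). The reduced fit called 2 higher and 26 lower. Tubulin models share sequence, so reads may be divided between copies. Together they took 0.675, 1.22 and 1.32% of all counts in control replicates 1, 2 and 3 and 0.316, 0.629 and 0.435% in the ethanol libraries, lower with ethanol in each pair. Sp-Btub5 (L_var_22568, chromosome 14, 28833010 to 28838245, minus strand) had the largest difference, from 51.9, 129.5 and 61.4 CPM in controls to 4.46, 13.7 and 3.17 CPM with ethanol, and fell by 3.65 ± 0.71 (SE). Next to it on chromosome 14, 3 models named Sp-Btub1 fell by 1.30, 2.67 and 3.16. The most abundant called alpha tubulin model, a copy of Sp-Atub13, stood at 1250.4, 3662 and 4062 CPM in controls and 455, 1329.7 and 764 CPM with ethanol. One model of Sp-Atub1 (L_var_09860, chromosome 4, 64440812 to 64441816, minus strand) had one of the smallest p-values, at 7.73, 32.2 and 39.0 CPM in controls and 0.914, 5.37 and 6.24 CPM with ethanol, and fell by 2.77 ± 0.43 (SE).

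Of 72 cilium and axoneme genes 3 fell and none rose, with a median of -0.42. The share called, 4.17%, was near the 4.07% of all genes. These were Sp-Kif3BL2, a subunit of the motor that carries cargo into cilia, Sp-Ift81h, of the transport particle, and Sp-Spag8. There were 29 lower and 4 higher without the 21 hpf pair of replicate 3. The dynein and tektin markers of ciliated cells differed among themselves, with none of 21 tested models called. In the reduced fit 4 were called lower, the tektins (adjusted p = 0.00152 to 0.0123). A low-level model of Sp-Dnah5, a dynein heavy chain, was the 1 called higher there (adjusted p = 0.0406). The 4 tektins, abundant filament proteins of the axoneme, summed to 1619 to 2232 CPM in controls and 778 to 1158 CPM with ethanol, with log2 differences of -0.98 to -0.72. The 17 dynein heavy chain models had a median of 0.0031, with 8 below 0, and summed to 415 to 756 CPM in controls and 399 to 703 CPM with ethanol. Over all 21 models the median was -0.02. Whether fewer ciliated cells play a part in the tubulin result was not tested.

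Genes of protein synthesis stood lower together. Of 81 cytoplasmic ribosomal protein genes 43 fell and none rose (53.1% called, against 2.61% of all genes called lower), and all 81 had log2 differences below 0, from -1.502 to -0.60. Their median was -1.19, and -0.89 when scaled by total counts. They took 4.76, 9.44 and 5.74% of all counts in control replicates 1, 2 and 3 and 2.89, 5.56 and 2.39% in ethanol replicates 1, 2 and 3. Replicate 2 was the highest in both groups, so the groups overlapped although the ethanol share was lower in each pair. Sp-Rpl10, a large subunit protein, measured 1504, 4297 and 1828 CPM in controls and 612, 2066 and 665 CPM with ethanol and fell by 1.26 ± 0.34 (SE). Sp-Rpl6 measured 1188, 2685 and 1706 CPM in controls and 569.6, 1182 and 556 CPM with ethanol and fell by 1.27 ± 0.35 (SE), without overlap. In the fit without the 21 hpf pair of replicate 3, 79 of the 81 fell.

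Other lists of abundant genes had the same direction with few or no calls. All 41 mitochondrial ribosomal protein genes and all 31 proteasome subunit genes had log2 differences below 0, with medians of -0.63 and -0.79 and with 3 and 0 genes called, all 3 lower. Of 61 oxidative phosphorylation subunit genes 59 were below 0 and 4 fell, among them Sp-Atp5b and both models of Sp-Atp5a1, of the catalytic part of ATP synthase. The 41 translation factors and 15 glycolytic enzymes held no call, with medians of -0.56 and -0.59. Without the 21 hpf pair of replicate 3, 28, 26, 50, 22 and 6 genes fell in these 5 lists, in the order mitochondrial ribosome, proteasome, oxidative phosphorylation, translation factors and glycolysis. Oxidative phosphorylation genes took 1.29% of all counts on average in controls and 0.871% with ethanol, and proteasome genes took 0.451% and 0.327%.

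**Figure D3:**
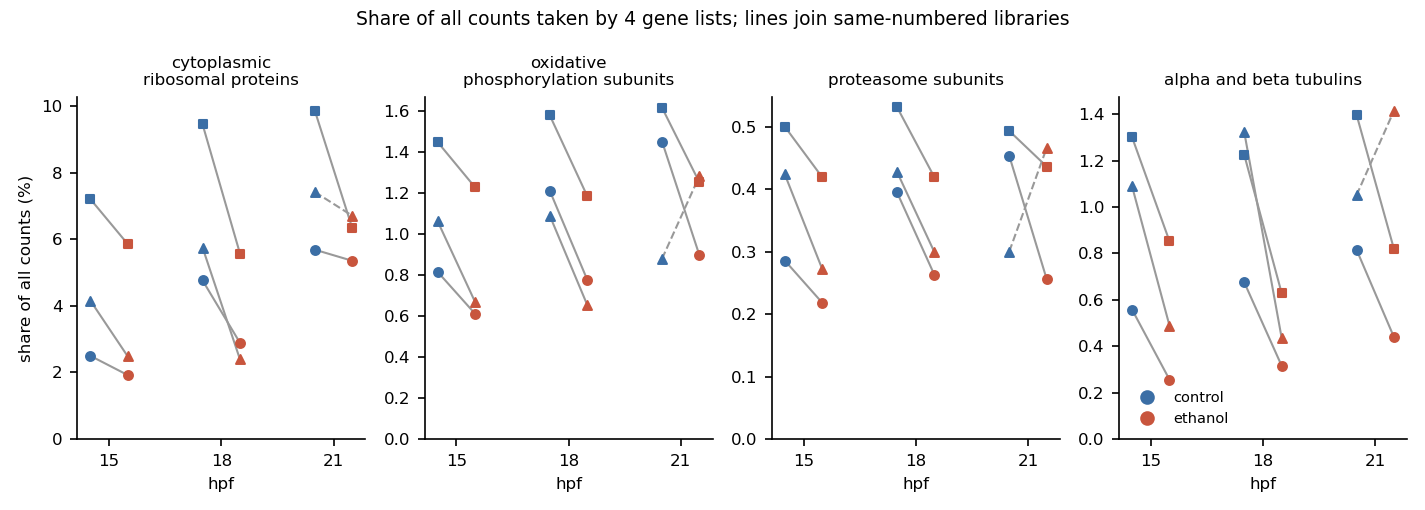
Share of all counts, in percent, taken by 4 gene lists in every library at 15, 18 and 21 hpf, with control and ethanol libraries side by side, circles, squares and triangles for replicates 1, 2 and 3 and lines joining same-numbered libraries (dashed for replicate 3 at 21 hpf). At 18 hpf the ribosomal protein share of each ethanol library is below that of its control, as 9.44% and 5.56% in replicate 2.

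Of 83 cell cycle and DNA replication genes 4 fell and none rose: Sp-Pcna, the sliding clamp of DNA polymerase, Sp-Orc3, of the origin recognition complex, the mitotic kinase Sp-Plk1 and the topoisomerase Sp-Top2a_1. That is 4.82%, near the 4.07% of all genes, and the reduced fit gave 4 higher and 32 lower. Sp-Pcna went from 497, 731 and 474 CPM in controls to 217, 314 and 171 CPM with ethanol and fell by 1.29 ± 0.35 (SE). Among chaperones, subunits of the cytosolic chaperonin that folds tubulin and actin fell. Of 85 genes tested, 7 fell and 1 rose (9.41% called), and the reduced fit gave 7 higher and 28 lower. The median of -0.28 became 0.03 when scaled by total counts. The fallen ones were the chaperonin subunits Sp-Cct4, Sp-Cct5, Sp-Cct7 and a model of Sp-Tcp1_1, a model of the Hsp70-type gene Sp-Hsp701A, Sp-Hsp701G, and Sp-Dnajhc5b, and the one that rose was a model of Sp-Dnajc16. Sp-Cct5 measured 247, 439 and 310.1 CPM in controls and 87.0, 189 and 102 CPM with ethanol and fell by 1.44 ± 0.35 (SE).

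Enzymes that oxidise alcohols and aldehydes were not called. Of 73 tested none rose or fell, and the median of -0.11 became 0.19 when scaled by total counts. The reduced fit called 3 of 77 higher and 12 lower, with 12.2% and 14.7% over all genes. Of 42 glutathione and antioxidant genes 3 fell and 1 rose (9.52% called; 3 higher and 14 lower in the reduced fit), with a median of -0.16 that became 0.14 when scaled by total counts. Both models of Sp-Sod2, the mitochondrial superoxide dismutase, fell: 1 fell by 1.34 and the other fell by 1.49. Sp-Chac, of a family that degrades glutathione, rose by 1.74 ± 0.45 (SE), from 10.4, 13.7 and 4.02 CPM in controls to 27.1, 30.3 and 30.9 CPM with ethanol. The other called gene was a model of Sp-Gst11, a glutathione S-transferase, which fell by 2.04 ± 0.52 (SE) with overlapping groups.

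Of 22 genes of the unfolded protein response and amino acid starvation, 3 rose and 1 fell (18.2% called), and the reduced fit gave 4 higher and 4 lower. The genes that rose were a model of Sp-Asns_1, Sp-Eif2ak3perk and Sp-Chac, the last of them described above. One of 3 models of Sp-Asns_1, asparagine synthetase (L_var_21562, chromosome 13, 35403119 to 35425003, plus strand), stood at 44.4, 29.9 and 51.9 CPM in controls and 171, 155 and 249 CPM with ethanol and rose by 2.17 ± 0.53 (SE). All ethanol libraries were above all controls. Sp-Phgdh, the first enzyme of serine synthesis (L_var_20751, chromosome 13, 11514833 to 11536350, plus strand), went the other way, from 175, 135 and 162 CPM in controls to 35.0, 53.4 and 29.4 CPM with ethanol, and fell by 2.02 ± 0.48 (SE). The next enzyme of that route, Sp-Psat1, measured 422, 221 and 257 CPM in controls and 64.3, 87.0 and 63.6 CPM with ethanol without overlap, but missed the threshold (adjusted p = 0.0642, and 0.000198 without the 21 hpf pair of replicate 3). Sp-Eif2ak3perk, a kinase gene of the unfolded protein response, rose by 0.82 ± 0.21 (SE) with overlapping groups. Of 50 folate and one-carbon enzymes 3 fell (6%, with 4.07% over all genes) and none rose. Those that fell were both models of Sp-Fpgs_6, a folylpolyglutamate synthase, and Sp-Bhmt_8. The reduced fit gave 3 higher and 15 lower, and the median of -0.20 became 0.11 when scaled by total counts. No aminoacyl-tRNA synthetase among 28 was called, while 6 were called higher and none lower in the reduced fit and 7 higher when scaled by total counts.

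Glycosyltransferases and sulfotransferases formed a large list with calls mostly on the lower side. Of 214 tested, 15 fell and 2 rose, which is 7.94% against 4.07% of all genes, with a median of 0.08. Sp-B4galt5_1, a beta-1,4-galactosyltransferase (L_var_19849, chromosome 12, 17597171 to 17605019, plus strand), measured 80.3, 151 and 80.9 CPM in controls and 0.800, 10.6 and 2.43 CPM with ethanol. It fell by 4.76 ± 0.94 (SE). Every ethanol library was far under the lowest control, with ethanol replicate 2 the highest of the 3. The other lower genes were 6 fucosyltransferase models, 7 sulfotransferases of chondroitin, dermatan or heparan chains and the sialyltransferase Sp-St8sia3_1. Among them Sp-Fut8L_1 fell by 2.88 ± 0.62 (SE) and Sp-Hs3st1L fell by 2.12 ± 0.47 (SE). Sp-B3galt1_9 and a model of Sp-B3galt5_6, beta-1,3-galactosyltransferases, were the genes that rose. The reduced fit gave 33 higher and 35 lower, without that tilt.

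Matrix genes were called in both directions. Of 50 collagens, fibrosurfins, laminins and integrins 3 rose and 2 fell (10% called), with a median of 0.55. Sp-FbsL_2, a fibrosurfin-like gene (L_var_04883, chromosome 2, 65188547 to 65192060, plus strand), had the largest fall of the named genes, from 57.5, 67.4 and 31.8 CPM in controls to 0.343, 3.36 and 0.846 CPM with ethanol. It fell by 5.24 ± 1.29 (SE), with adjusted p = 0.0463. Ethanol replicates 1 and 3 were under 1 CPM, from 3 and 8 counts. Sp-Echn3, an echinonectin, fell by 2.92 ± 0.75 (SE). A model of Sp-Col18a1Lf and the collagens Sp-Colf_6 and Sp-Colf_13 rose. The reduced fit gave 13 higher and 3 lower.

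Of 43 metalloprotease genes 2 rose, a model of Sp-Adam/Ts and the inhibitor Sp-Timp4b. Of 82 C-type lectins 2 rose, Sp-Clect/Tsp1 and a model of Sp-Clect/Fn3_9. Of 78 scavenger receptor cysteine-rich genes 3 fell and 1 rose, and Sp-Srcr212 (L_var_03944, chromosome 2, 34598564 to 34604640, plus strand) had the largest fall of these, from 49.3, 36.4 and 19.3 CPM in controls to 1.37, 5.37 and 1.48 CPM with ethanol. It fell by 3.66 ± 0.70 (SE), with no overlap. The shares called were 4.65% of metalloproteases, 2.44% of lectins and 5.13% of scavenger receptor genes, with 4.07% over all genes. In the reduced fit these lists gave 11 higher and 2 lower, 16 higher and 9 lower, and 12 higher and 5 lower, so the scavenger receptor calls leaned the other way there.

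Receptors and a transporter were among the genes with the largest rises. Of 138 neurotransmitter and peptide receptors 5 rose and 1, a model of Sp-Chrna6L, fell, with a median of 0.55. Sp-Hrh2_3, a histamine receptor model, stood at 2.3996, 1.63 and 2.28 CPM in controls and 10.2, 5.37 and 12.5 CPM with ethanol and rose by 2.13 ± 0.53 (SE). Sp-Sstr4L_2, a somatostatin receptor model, stood at 3.87, 2.28 and 0.268 CPM in controls and 10.6, 13.3 and 6.13 CPM with ethanol and rose by 2.32 ± 0.58 (SE). A model of Sp-Drd2, a dopamine receptor, rose by 1.43. The low-level models of Sp-Tacr2L_1 and Sp-Chrm3L_10 also rose, the latter in 2 of 3 pairs. Outside the list, Sp-Crhr2L_1, a corticotropin releasing hormone receptor (L_var_21343, chromosome 13, 28619146 to 28642852, minus strand), measured 3.47, 1.30 and 1.61 CPM in controls and 20.8, 7.38 and 4.12 CPM with ethanol and rose by 2.18 ± 0.46 (SE). Sp-Kiaa1751L_1, described as the binding protein of that hormone, rose by 2.03 ± 0.55 (SE), with overlapping groups.

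Of 86 Slc16 monocarboxylate transporters 1 rose and 3 fell, Sp-Slc16a4L_6 and models of Sp-Slc16a14L_7 and Sp-Slc16a6_3. The one that rose, Sp-Slc16a14L_1 (L_var_26247, chromosome 18, 16092800 to 16118871, minus strand), stood at 4.67, 8.95 and 4.42 CPM in controls and 24.3, 59.995 and 30.1 CPM with ethanol. It rose by 2.63 ± 0.62 (SE), and the lowest ethanol library was above the highest control. Of 41 acid-base transporters 1 rose, Sp-Slc9a8, a sodium/hydrogen exchanger. Of 37 caspase and cell death genes 2 rose and none fell, Sp-Traf3, an adaptor of tumour necrosis factor receptors, and a model of Sp-TnfrsfL1, a receptor of that family. Sp-Traf3 measured 6.67, 8.14 and 10.2 CPM in controls and 19.999, 16.8 and 40.7 CPM with ethanol and rose by 1.54 ± 0.42 (SE). The shares called in the receptor, Slc16, acid-base and cell death lists were 4.35, 4.65, 2.44 and 5.41%, with 4.07% over all genes. In the reduced fit the receptors gave 28 higher and 9 lower and the Slc16 genes 13 higher and 8 lower, so most Slc16 calls were then rises. The acid-base list gave 5 higher and 3 lower and the cell death list 10 higher and 3 lower.

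The named genes that belong to no list follow here. Sp-RasD, a small GTPase gene (L_var_17231, chromosome 10, 9389545 to 9390123, minus strand), had the largest rise, from 1.87, 0.976 and 2.41 CPM in controls to 13.7, 3.36 and 44.2 CPM with ethanol. It rose by 3.24 ± 0.87 (SE). Ethanol replicate 2 lay much nearer the controls than the other ethanol libraries did, without overlap. Sp-Evi1, a zinc finger transcription factor gene (L_var_22339, chromosome 14, 21289489 to 21299221, minus strand), measured 5.60, 3.25 and 8.71 CPM in controls and 25.1, 16.1 and 42.9 CPM with ethanol and rose by 2.25 ± 0.49 (SE). Sp-Aji measured 8.53, 5.21 and 5.36 CPM in controls and 24.8, 15.4 and 33.2 CPM with ethanol and rose by 1.91 ± 0.42 (SE). A model of Sp-Gluld1, of the glutamine synthetase family, stood at 20.4, 18.1 and 18.5 CPM in controls and 98.6, 75.03 and 70.7 CPM with ethanol, and rose by 2.096 ± 0.55 (SE).

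Sp-Tmem20_2 and Sp-Ccp/Egf/Tsp1/HyalinL2 rose by 2.31 and 1.88 in the models named here. Sp-Lrrc20, Sp-Rab37 and Sp-Pkd2, the polycystin-2 channel gene, had small p-values with smaller rises, of 1.03 ± 0.19, 1.23 ± 0.25 and 0.78 ± 0.16 (SE). On the lower side, Sp-Nmral1_2 (L_var_22888, chromosome 15, 6304274 to 6310398, plus strand) went from 56.4, 137 and 85.1 CPM in controls to 2.3998, 13.4 and 3.28 CPM with ethanol and fell by 4.02 ± 0.76 (SE). Sp-Ccp/Zp_1 went from 114, 142 and 131 CPM in controls to 1.83, 21.3 and 18.5 CPM with ethanol and fell by 3.43 ± 0.70 (SE). Sp-Fam151bL and Sp-Hypp_2644 fell by 3.25 ± 0.53 and 1.35 ± 0.21 (SE), both without overlap.

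**Figure D4:**
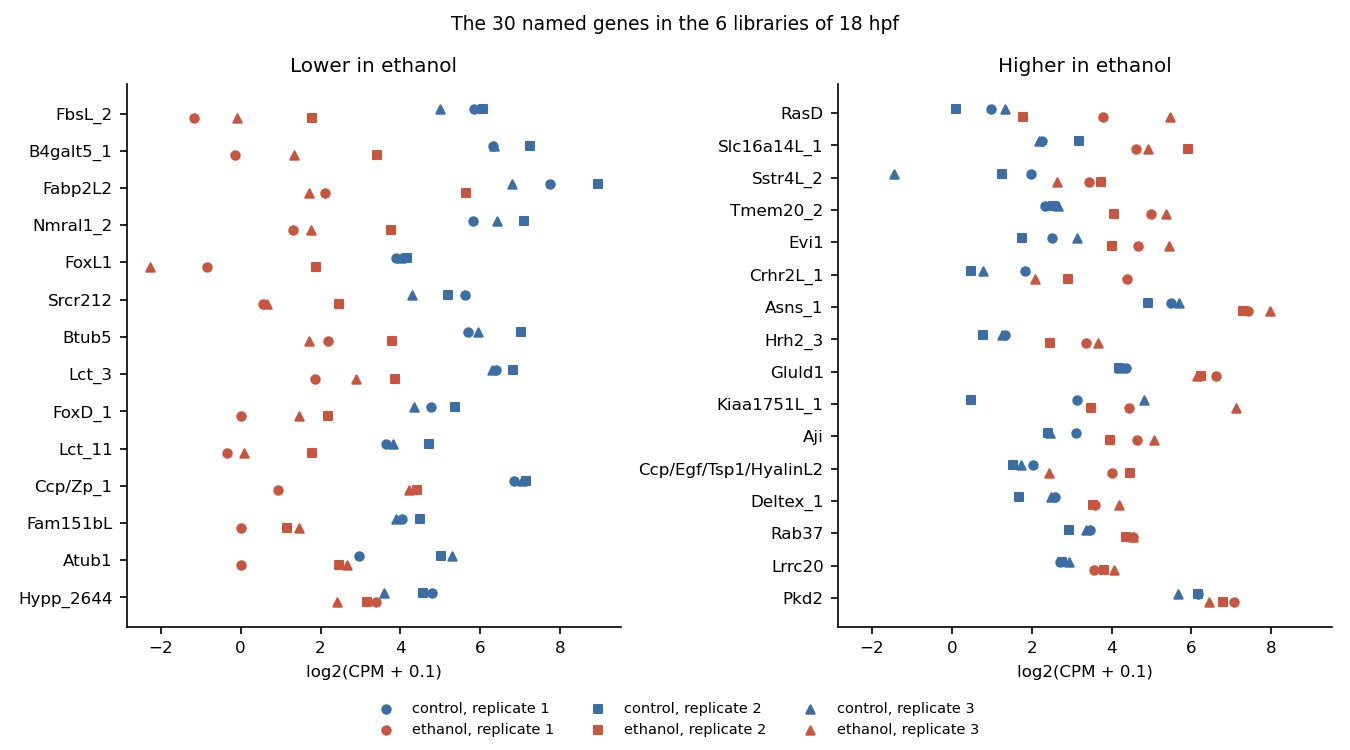
Levels of the 30 genes named for the size of their change or their p, on a log2(CPM + 0.1) axis, lower genes on the left and higher genes on the right. Each point is 1 of the 6 libraries of 18 hpf. Control and ethanol points separate for all genes but Sp-Kiaa1751L_1.

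The genes called at 18 hpf were then read in the pairs of the other times, which entered the fit for the spread and the block but not the 18 hpf contrast. In the 15 hpf pairs of replicates 1, 2 and 3, the genes called lower at 18 hpf had medians of -0.83, -0.85 and -1.01 on the log2 scale and those called higher 0.67, 0.77 and 0.97. At 21 hpf the pairs of replicates 1 and 2 gave -0.67 and -0.78 for the lower genes and 0.78 and 0.59 for the higher ones. The pair of replicate 3 gave 0.75 and -0.85, the opposite of the other 8 pairs. With all libraries, 89 genes were called at 15 hpf (0.477%), 22 higher (0.118%) and 67 lower (0.359%), and none at 21 hpf, where 403 had an unadjusted p under 0.05 in edgeR. Without that pair the counts were 2943 and 2037.

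**Figure D5:**
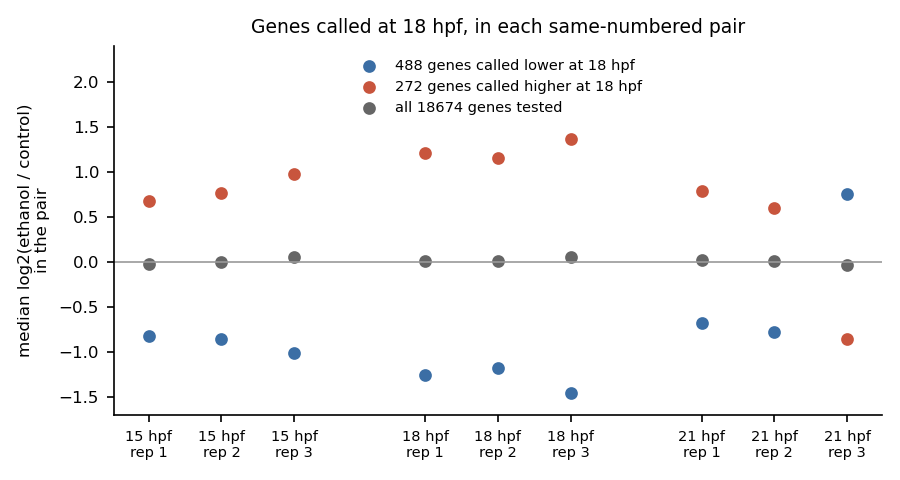
Median log2 ratio of ethanol to control within each same-numbered pair at 15, 18 and 21 hpf, for the 488 genes called lower, the 272 called higher and all genes tested. The 18 hpf pairs chose the genes. The pairs of other times lie on the same sides except that of replicate 3 at 21 hpf, at 0.75 and -0.85.

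No gene had an ethanol effect at 18 hpf called different from that at 15 hpf (420 with an unadjusted p under 0.05) or from that at 21 hpf (1812), by edgeR's interaction test with all libraries. DESeq2 with the block gave 0 and 15. The fit without the 21 hpf pair of replicate 3 called 3 genes against 15 hpf (0.0157%), all with the lower effect at 18 hpf, and 3 against 21 hpf (0.0157%), all with the higher one. The smallest p-values against 15 hpf belonged to Sp-SoxE, a Sox transcription factor gene, and a model of Sp-Hypp_1556. Sp-SoxE had log2 differences of 1.53 at 15 hpf and -0.43 at 18 hpf, with adjusted p = 1.000 for their difference. Against 21 hpf they belonged to Sp-Hypp_2644 and Sp-FoxY.

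The change from 15 to 21 hpf in control libraries, which are not in the 18 hpf contrast, was read for the same genes. Of the 488 genes called lower with ethanol, 67.2% had a fitted control change above 0 over that window, with a median of 0.54 on the log2 scale, against 52.0% and 0.03 over all genes tested. Without the 21 hpf pair of replicate 3 the lower genes gave 73.6% and 0.63. Of the 272 genes called higher, 66.5% were above 0 with a median of 0.29, which became 46.7% and -0.08 without that pair. All 14 lower genes named for size or p had fitted control changes above 0, from 1.30 to 5.63, and 12 of the 16 higher ones did, within -1.29 to 3.68. Without that pair all 14 and 7 of the 16 did, from 1.33 to 6.01 and from -2.05 to 2.72.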

How the data were processed

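The authors deposited raw counts of reads for each gene model and library, not normalized. Per the submitters' processing notes, fastp, STAR and featureCounts were used. Their versions, the strand setting and the genome build are not given in the sources used here. Gene names (Sp-, best hits in Strongylocentrotus purpuratus) and coordinates come from the deposited annotation, which also lists the percent identity of each best hit, and names shared by several models mark possible division of reads. Letters A to C of the sample sheet were taken as replicates 1 to 3.

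These counts were fitted with edgeR 4.0.16 (R 4.3.3) after filterByExpr (minimum count 10, minimum total 15) and TMM scaling (trimmed means of log ratios). Next, 6 group means with replicate number as a block were fitted by quasi-likelihood to all 18 libraries. Tests were two-sided, with Benjamini-Hochberg adjustment and a threshold of 0.05. The standard error is the log2 fold change divided by the square root of F, an approximation. Same-numbered libraries were taken as paired by the correlations of their deviations at 15 hpf (0.600 to 0.742) and 18 hpf (0.630 to 0.680), while 21 hpf gave -0.22 to 0.402. No pair of 18 hpf libraries agreed within sampling noise (chi-square over its degrees of freedom 21.7 or more). Data for the 18 hpf comparison with 18674 genes were simulated from the fit with the block. Of 100 genes changed by 1 on the log2 scale 21 were recovered, and of 100 changed by 2, 79. Beside these recovered genes there were 10 false calls. With no block the same data gave 1 and 45 recovered genes and 1 false call. The replicate effect was built into the simulated data, so this cannot show whether the block suits the real libraries. The simulated data also held no 21 hpf pair that ran opposite to the others.

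To be named, a called gene needed a name in the annotation, an average log2 CPM of 2 or more at 18 hpf and 1 direction in all 3 pairs. Of these the 12 largest changes and the 4 smallest p-values in each direction were named, with called genes of the lists, members of lists of up to 30 genes by level, and the 2 smallest p-values for each difference between times. The comparison, its members and all 38 lists were chosen with earlier results of these data known. Other genes named in the text were picked after their values were seen. DESeq2 1.42.0 and limma 3.58.1 were alternatives. One gene that met the naming rule is not reported here.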

Additional observations from a re-analysis of the deposited data

Results flagged for a closer look

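For 6 genes the ethanol effect differed between 18 hpf and another time by edgeR's interaction test, with Benjamini-Hochberg adjustment over 19101 genes, when the 21 hpf pair of replicate 3 was left out. With that pair none of the 6 passed. Each value is the ethanol effect at 18 hpf minus that at the other time, on the log2 scale.

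Against 15 hpf, Sp-FbsL_2, the fibrosurfin-like gene, had a difference of -4.927 (adjusted p = 0.0195), from effects of -5.29 at 18 hpf and -0.36 at 15 hpf. Its 15 hpf libraries held 1.54, 8.69 and 1.55 CPM in controls and 3.78, 3.10 and 1.00 CPM with ethanol, low in both groups. Sp-Rej9, a receptor for egg jelly gene, had a difference of -3.426 (adjusted p = 0.000874), with 36.9, 44.6 and 43.4 CPM in 18 hpf controls and 4.34, 3.76 and 5.71 CPM with ethanol. At 15 hpf all 6 libraries of Sp-Rej9 were between 2.397 and 4.81 CPM. Sp-SatL2, a spermidine/spermine acetyltransferase-like gene, had a difference of -2.149 (adjusted p = 0.0195), with 27.5, 20.5 and 28.3 CPM in 18 hpf controls and 5.49, 4.29 and 4.44 CPM with ethanol.

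Against 21 hpf, Sp-Mlckb, a myosin light chain kinase gene, had a difference of 4.608 (adjusted p = 0.014). Its level at 18 hpf was 0.933, 1.79 and 0.268 CPM in controls and 7.31, 4.83 and 3.07 CPM with ethanol. At 21 hpf replicates 1 and 2 held 12.5 and 13.1 CPM in controls and 1.58 and 3.90 CPM with ethanol. Sp-Igcam/Igcam, a cell adhesion gene close to it on chromosome 1 and 1 of a pair of models of that name, had a difference of 4.527 (adjusted p = 0.00127). Sp-Msclact, a muscle actin model that shares its name with others, had a difference of 3.949 (adjusted p = 0.000439). It measured 239.9 and 294 CPM in the 21 hpf controls of replicates 1 and 2 and 6.71 and 13.3 CPM with ethanol, against 14.9, 17.9 and 12.6 CPM in 18 hpf controls and 4.80, 8.99 and 12.8 CPM with ethanol.

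In the 21 hpf pair of replicate 3 that was left out, the library labelled ethanol held 275 CPM of Sp-FbsL_2 and the library labelled control 11.6 CPM, while in replicates 1 and 2 the controls held 236 and 306 CPM and the ethanol libraries 11.3 and 39.0 CPM. Whether those labels were exchanged was not tested.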

How the results depend on the processing

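The ethanol effect at 18 hpf gave 760 calls in the fit reported. With no replicate block it gave 0, and with 1 replicate block per time (9 pairs) it gave 1 (5484 with an unadjusted p under 0.05). Fits on other sets of libraries gave 7166 (18 hpf alone), 5678 (15 and 18 hpf) and 5134 (without the 21 hpf pair of replicate 3). DESeq2 with the block gave 2820, and 280 with no replicate block. Total counts as scaling, an alternative added after seeing the data, gave 1571 calls, no filter gave 1198 and a minimum count of 30 gave 1256. Leaving out a replicate, at 18 hpf or at every time, gave 0 to 1140 calls, the highest without replicate 3 at every time. RLE size factors gave 758 and limma-voom 1065. Differences between times gave 0 calls in the fit reported. Against 15 hpf there were 3 without the 21 hpf pair of replicate 3, 2 with 15 and 18 hpf libraries and 0 to 1 with a replicate left out. Against 21 hpf there were 3 without that pair, 15 by DESeq2 with the block and 0 to 1 with a replicate left out. None of the 30 genes named for size or p changed direction under any of these settings. All 30 lost their call with no replicate block (adjusted p 0.222 to 0.389), with the 9-pair block, with any 18 hpf pair left out (0.209 to 0.324) and without replicate 1 or 2 at every time, as did 10 under DESeq2 with no replicate block and 2 under limma-voom. The causes were not tested. At 7434025 to 8000894 counts a library, Sp-FbsL_2 rested on 3, 25 and 8 counts in the ethanol libraries, so its level there is known only roughly.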
